A study of Mus musculus with 18 samples.

Results

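The 9 genes described here are Neurog1, Neurog2, Neurod1, Neurod4, Atoh1, Olig2, Hes5, Dll1 and Dll3, which were chosen by name as proneural basic helix-loop-helix (bHLH) factors and members of the Notch pathway, out of 25239 genes in the count table. All 9 were in the table and all 9 had enough counts to be tested. The data are bulk RNA-seq counts from E14Tg2a mouse embryonic stem cell derivatives, 18 libraries in 9 conditions with 2 libraries each. Wild-type (WT) cells were collected as EpiLCs (epiblast-like cells made with Activin A and Fgf), as aggregates at days 2 and 6 without cytokines, and at day 6 with cytokines. TKO cells (Tet1-/-, Tet2-/-, Tet3-/-) were collected as EpiLCs and as aggregates at days 2 and 6, each with and without cytokines. The cytokines, BMP4, BMP8a, SCF, LIF and EGF in GK15 medium, turn EpiLCs into primordial germ cell-like cells (PGCLCs). The TKO cells were a clonal line in which the reading frames of the 3 Tet genes had been cut out, so clone and genotype cannot be told apart. The study's text says that the WT cells with cytokines at day 6 were sorted for SSEA1 and CD61, whereas the labels call all day 2 and day 6 samples aggregates. Comparisons with that condition therefore also compare sorted with whole material.

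In the developing nervous system, a proneural bHLH factor binds E-boxes in DNA together with an E protein and starts the neuronal programme of a progenitor. It also switches on the Notch ligands Dll1 and Dll3. Dll1 on a committing cell activates Notch receptors on its neighbours, whose cut intracellular part joins RBPJ to switch on Hes5, a bHLH repressor of the proneural genes. This exchange, called lateral inhibition, keeps some cells as progenitors while others become neurons.

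Gene spans here are from RefSeq on mm10, with strands and exon numbers from GENCODE vM21. The neurogenins are Neurog1 at chr13:56250478-56252180 (minus strand, 1 exon) and Neurog2 at chr3:127632733-127635636 (plus strand, 2 exons). Atoh1 lies at chr6:64729125-64731245 (plus strand, 1 exon). Neurod1 lies at chr2:79452637-79456636 and Neurod4 at chr10:130268152-130280254 (both minus strand, 2 exons each), and Olig2 at chr16:91225550-91228677 (plus strand, 2 exons). The Notch ligands are Dll1 at chr17:15367354-15376932 (minus strand, 11 exons) and Dll3 at chr7:28293555-28301785 (minus strand, 9 exons), and Hes5 lies at chr4:154960626-154962372 (plus strand, 3 exons). The counts cover all exons of each gene, untranslated parts included.

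Promoters were read from RefSeq (GRCm38.p6, the mm10 build) as 250 bases before and 50 after each start site, and letters are shown for the genes at which ligand and target meet in this circuit. Every member matched, with 2 start sites for Dll1 and Neurod4. The core of the RBPJ site, searched as TGGGAA on both strands, was found on 2 occasions before the RefSeq start site of Hes5 and in no other member's window. The gene span of Hes5 given above begins upstream of that start site and of both matches, so the matches lie inside it. It is in 25.6% of 32851 promoter windows, and 3.79% hold it at least 2 times. Each Hes5 match is shown with 12 bases on either side and the motif in capitals.
Hes5, plus strand, chr4:154960685-154960714, motif at -226 from the start site: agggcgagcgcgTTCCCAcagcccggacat
Hes5, plus strand, chr4:154960829-154960858, motif at -82: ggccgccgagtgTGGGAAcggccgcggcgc
The matches face in opposite directions, since the capitals of the upper sequence are the reverse complement of those of the lower. The Hes5 window also held 41 CpG dinucleotides, and 96.5% of promoters held fewer. The E-boxes preferred by proneural factors were searched as CAGCTG or CAGATG, a subset of the general E-box CANNTG, and 30.6% of windows hold one while 72.3% hold the general form. They were found before Dll1 and Dll3, and 4 bases into the transcript from the inner Neurod4 start site. The 250 bases before the outer Dll1 start site and before Dll3 are shown with the proneural E-box in capitals.
Dll1, minus strand, chr17:15376933-15377182, motif at -132: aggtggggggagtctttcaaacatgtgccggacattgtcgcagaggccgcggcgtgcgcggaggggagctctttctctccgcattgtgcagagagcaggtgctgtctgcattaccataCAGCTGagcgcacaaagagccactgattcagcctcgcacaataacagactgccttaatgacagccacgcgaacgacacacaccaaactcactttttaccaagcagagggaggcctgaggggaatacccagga
Dll3, minus strand, chr7:28301786-28302035, motif at -7: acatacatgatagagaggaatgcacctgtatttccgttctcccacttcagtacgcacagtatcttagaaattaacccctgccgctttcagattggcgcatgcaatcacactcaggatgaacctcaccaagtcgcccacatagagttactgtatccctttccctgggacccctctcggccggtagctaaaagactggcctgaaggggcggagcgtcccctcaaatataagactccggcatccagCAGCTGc
These matches are letters in a window and do not show that a factor was bound. The E-box CAGCTG reads the same on both strands, so it has no direction.

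Levels are normalised read counts, the counts divided by DESeq2 size factors, given as mean ± SD (n = 2). A gene passed in a comparison when its adjusted p (edgeR's quasi-likelihood test, Benjamini-Hochberg adjusted across 16582 tested genes) was below 0.05 and its fitted log2 fold change lay beyond 2 in either direction. Adjusted p-values below come from that test and measure only the spread between these libraries. A fold given as at least some value sets a condition mean against a floor of 3 counts, and a single library can lie below it. Library totals ran from 11286050 to 41257861, of which 16.2 to 47.6% fell on Rn45s, the ribosomal RNA precursor. Of the deleted genes, Tet3 averaged 145 normalised counts in TKO and 919.9 in WT EpiLCs, and 245 and 4657 at day 6 without cytokines. Tet1 averaged 852 and 6131 in TKO and WT EpiLCs but 868 and 950 at day 6 without cytokines. Tet2 averaged 289 in TKO and 1001 in WT cells at that time. At day 2 without cytokines, TKO and WT cells averaged 1568 and 1891 of Tet1 and 201 and 2261 of Tet3. Tet2 was then the higher in TKO cells, at 380 and 244, and did not pass the test described above (adjusted p = 0.301). The table adds up all exons, so the untranslated parts that the deletion leaves are counted and these levels are only a partial check of genotype. In whole cultures, fewer cells of a type and less RNA per cell cannot be told apart.

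The 2 WT libraries at day 6 without cytokines stood further apart than those of any other condition, and the highest single value of each of the 9 genes lies there. Replicate 2 held Atoh1 at 803 against 4.08 normalised counts in replicate 1, a 197-fold gap, and 0.0513% of the 11694 genes compared differed as far between these libraries. Replicate 1 held the higher Neurog1 level, by 6.76-fold, the higher Neurod1 level, by 4.32-fold, and the higher Neurod4 level, by 2.77-fold. Neurog2 was 2.40-fold and Olig2 3.33-fold higher in replicate 2, while Dll1 differed by 1.42-fold, with Hes5 (4013 and 5607) and Dll3 (1695 and 1128) as close. The Notch target and the ligands were thus close in the pair, and the proneural factors differed in both directions. The summed levels of the 9 genes were 13126 and 13312. Markers of other neural cell types also differed in this pair, in both directions. The 8 motor neuron and ventral cord markers summed to 2391 and 149 in replicates 1 and 2, with Mnx1 at 3 counts or fewer. Of them, Nkx6-1 stood at 1382 and 62.5, and Isl1, a motor neuron factor, at 378 and 22.0, in replicates 1 and 2. Olig2, itself a factor of ventral progenitors, ran against that sum, at 10.4 and 34.7. The 9 dorsal interneuron markers summed to 6449 and 4412, with none at that floor. The 5 markers Lhx1, Lhx5, Lbx1, Pou4f1 and Tlx3 were higher in replicate 1, Lhx1 at 2282 and 655, and Barhl1, Barhl2, Lhx9 and, by 1.06-fold, Lhx2 were higher in replicate 2. Barhl1 and Lhx9, named after their values were seen, are factors of the dorsal-most, Atoh1-expressing domain. Barhl1 stood at 19.9 and 425 and Lhx9 at 10.9 and 248, in the opposite order. The part of regional identity or any other difference in these levels was not tested, and each call of the 9 genes that rests on this pair is given below with 1 library left out wherever that changes it. Calls of other genes were not refitted in that way.

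**Figure D1:**
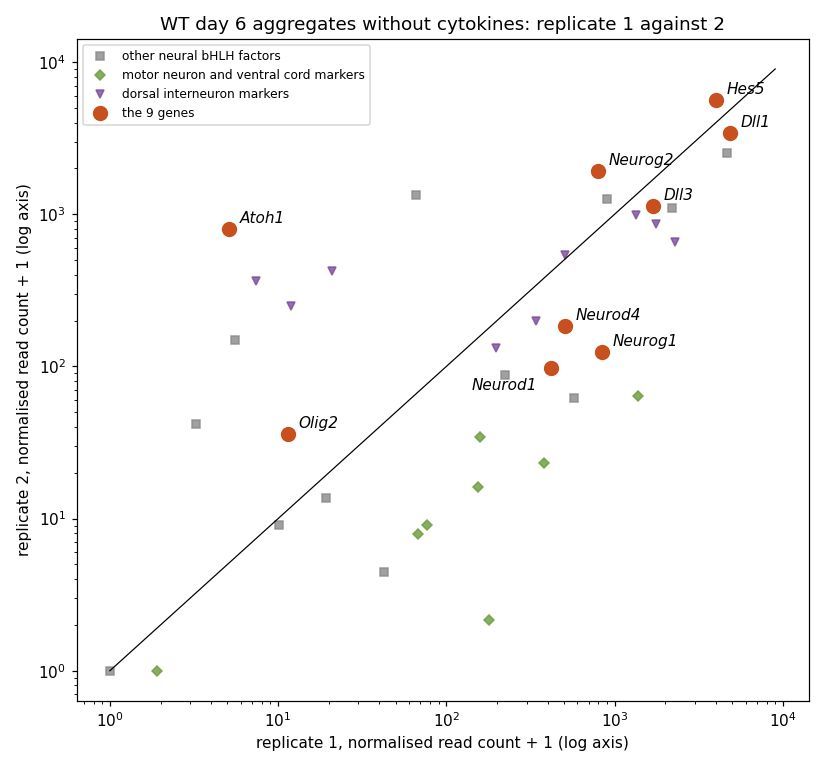
Normalised read count plus 1 in replicate 1 (horizontal, log axis) against replicate 2 (vertical, log axis) of WT aggregates at day 6 without cytokines, 1 point for each gene, with the line of equal levels. Hes5, Dll1 and Dll3 lie near the line, Atoh1 lies far above it at 4.08 and 803 normalised counts, and Neurog1, Neurod1 and Neurod4 lie below it with the ventral cord markers.

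In WT cells without cytokines, all 9 genes rose from EpiLCs to day 6, against a background of 16.4% of tested genes called higher. The median fitted log2 fold change of the 9 was 7.48, beside 0.05 over all tested genes. Against day 2, 7 of the 9 rose, all but Neurod1 and Olig2, with 8.51% of tested genes called higher. Without day 6 replicate 2, Atoh1 lost that call (log2 fold change 2.02, adjusted p = 0.198) and Neurod1 gained it (2.14, adjusted p = 0.00651). By day 2, only Hes5, Neurod4 and Olig2 had passed the test against EpiLCs, with a background of 6.8%. The genes thus fell into those already present in EpiLCs, those first raised at day 2 and those that were near 0 until after day 2.

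Dll1 encodes the ligand that activates Notch in trans. It was the most abundant of the 9 in WT EpiLCs, at 588 and 322 normalised counts in replicates 1 and 2. At day 2 without cytokines it stood at 276 and 246, and at day 6 at 4848 and 3424. The dip at day 2 did not pass the test (log2 fold change -0.73, SE 0.28, adjusted p = 0.051). Day 6 lay 9.09-fold above EpiLCs, a log2 fold change of 3.21 (SE 0.29, adjusted p = 2.52e-07). Dll3, a relative that does not activate Notch in trans and blocks it in the same cell, followed Dll1 at a lower level. It stood at 229.7 and 192 in EpiLCs, 147 and 85.5 at day 2, and 1695 and 1128 at day 6. Its day 6 level was 6.69-fold that in EpiLCs (log2 fold change 2.75, SE 0.34, adjusted p = 5.20e-06), with no overlap between the libraries.

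Hes5 carries the readout of Notch signalling, and had the widest range of the 3 Notch genes. Its WT levels were 4.82 and 7.78 in EpiLCs, 38.0 and 33.4 at day 2, and 4013 and 5607 at day 6. Hes5 was thus 5.67-fold above EpiLCs at day 2 (log2 fold change 2.39, SE 0.43, adjusted p = 0.000699) and 763-fold above at day 6 (9.42, SE 0.42, adjusted p = 6.41e-10). The day 2 level was 0.742% of the day 6 level, whereas the ligands stood at 6.31% (Dll1) and 8.24% (Dll3) of theirs. Per kb of exon in GENCODE vM21, Hes5 was the highest of the 9 at day 6 with 3779 normalised counts per kb, followed by Dll1 with 1093, Neurog2 with 608 and Dll3 with 539. Neighbours in this order overlapped between libraries for Neurog2 and Dll3 (358 and 859 against 648 and 431) but not for Hes5 and Dll1 or for Dll1 and Neurog2. Dll3 also overlapped the next gene, Neurog1 (497 and 73.5). Neurog1 followed with 285, Atoh1 with 190, Neurod4 with 103, Neurod1 with 93.7 and Olig2 with 8.93 normalised counts per kb. Of these, Neurog1, Atoh1, Neurod4 and Neurod1 overlapped between libraries, and Atoh1 (1.92 and 378) also overlapped Olig2 (4.12 and 13.7).

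The neurogenins, factors that start neuronal commitment, were near 0 until day 2. Neurog2 stood at 1.61 and 1.11 normalised counts in WT EpiLCs, 3.90 and 5.44 at day 2, and 797 and 1912 at day 6. With 3 counts or fewer in each EpiLC library, its rise was at least 418-fold by the mean (adjusted p = 4.43e-08), and against day 2 it was 290-fold. Neurog1 went from 3.21 and 0.556 in EpiLCs through 7.80 and 9.32 at day 2 to 838 and 124 at day 6. Its rise was at least 148-fold by the mean of 2 unlike libraries (adjusted p = 4.73e-06). It passed without either day 6 library, with log2 fold changes of 6.42 and 9.21. Both genes therefore rose between days 2 and 6, and their levels in the day 6 pair ran in opposite directions.

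Atoh1, the factor of cerebellar granule cells, hair cells and the dorsal-most spinal interneurons, rose in a single library. Its WT levels were 3.21 and 1.67 in EpiLCs, 1.95 and 0 at day 2, and 4.08 and 803 at day 6. The day 6 call (at least 124-fold by the mean, adjusted p = 0.00122) was lost without replicate 2, when the log2 fold change was 0.88 with an adjusted p of 0.503. Without replicate 1 it was 8.49.

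Neurod1 and Neurod4, factors that act after commitment, had different courses. Neurod4 was at 0 in both WT EpiLC libraries, 36.1 and 42.7 at day 2, and 506 and 183 at day 6. It had risen at least 12.1-fold by day 2 (adjusted p = 0.000127) and at least 106-fold by day 6 (adjusted p = 7.31e-07). Neurod1 was already present in WT EpiLCs at 51.4 and 55.6, and stood at 95.5 and 85.5 at day 2 and 415 and 96.1 at day 6. Its 4.78-fold rise to day 6 passed (log2 fold change 2.26, SE 0.70, adjusted p = 0.0111) but was lost without day 6 replicate 1 (0.84, adjusted p = 0.303) and without either EpiLC library (adjusted p = 0.0649 and 0.0611). The Neurod1 locus also overlaps Cerkl and an antisense RNA.

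Olig2, a factor of ventral progenitors that give motor neurons and oligodendrocytes, had the lowest WT level of the 9 at day 6, and was already at a like level at day 2. It stood at 1.61 and 1.11 in WT EpiLCs, 30.2 and 23.3 at day 2, and 10.4 and 34.7 at day 6. Both later times passed against EpiLCs, at least 8.25-fold at day 2 (adjusted p = 0.00580) and at least 6.96-fold at day 6 (adjusted p = 0.00476), and both calls were lost without EpiLC replicate 2 (adjusted p = 0.0878 and 0.0735). Days 2 and 6 overlapped, with a log2 fold change of -0.35 (SE 0.74, adjusted p = 0.748).

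**Figure D2:**
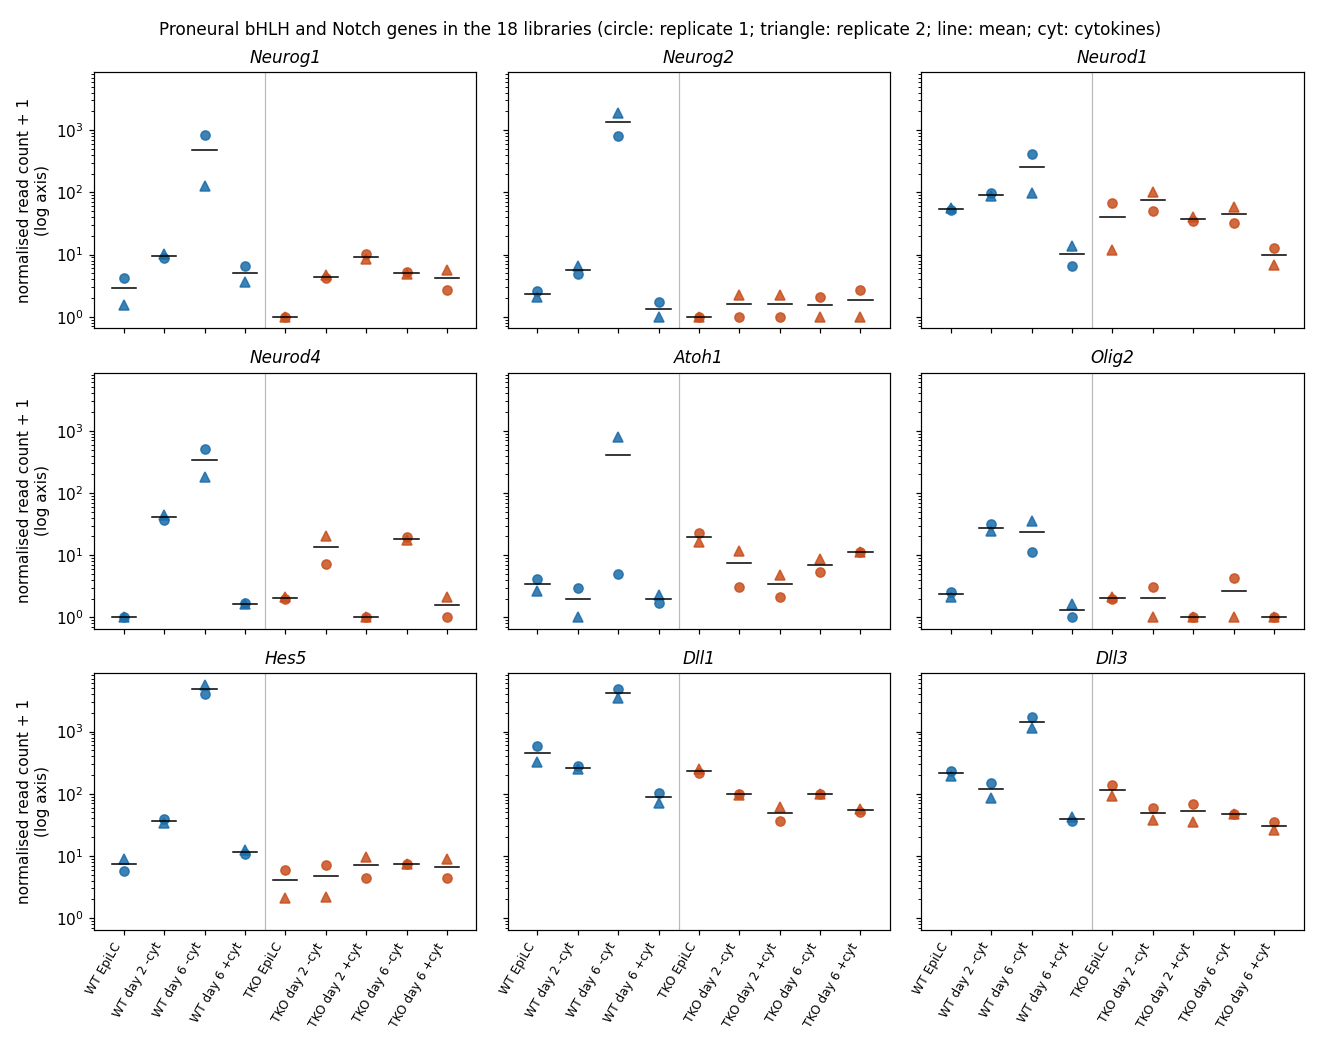
Normalised read count plus 1 (vertical, log axis) of each of the 9 genes in the 9 conditions (horizontal), with a circle for replicate 1, a triangle for replicate 2 and a line at the mean, blue for WT and orange for TKO. In WT cells without cytokines at day 6, Hes5 reaches 4013 and 5607 and Dll1 4848 and 3424 normalised counts, whereas no TKO library holds more than 252 of Dll1 or 8.69 of Hes5.

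At day 6 without cytokines, all 9 genes were lower in TKO than in WT cells, with 9.46% of tested genes called lower. The median log2 fold change of the 9 was -5.39 and that of all tested genes 0.01. The Notch members changed with the smallest errors. Hes5 stood at 6.46 and 6.31 normalised counts in the TKO libraries, 753-fold below WT (log2 fold change -9.51, SE 0.43, adjusted p = 4.71e-10). Dll1 stood at 96.9 and 97.2, 42.6-fold below WT (-5.39, SE 0.33, adjusted p = 6.90e-09), and Dll3 at 46.3 and 45.4, 30.8-fold below (-4.92, SE 0.38, adjusted p = 7.35e-08). None of these TKO libraries overlapped WT, and the ligands kept a measurable level whereas Hes5 was close to its level in TKO EpiLCs.

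Among the proneural factors, Neurog2 was nearest to 0 in TKO cells at day 6 without cytokines, with 1.08 and 0 normalised counts, at least 386-fold below WT (adjusted p = 5.58e-08). Neurog1 stood at 4.31 and 3.79, 119-fold below WT by the means (adjusted p = 1.54e-05). Atoh1 stood at 4.31 and 7.57, which overlapped the WT pair. Its call (log2 fold change -6.05, SE 1.51, adjusted p = 0.00317) rested on WT replicate 2, without which the direction turned (0.54, adjusted p = 0.668). Neurod4 stood at 18.3 and 16.4, 19.8-fold below WT (-4.28, SE 0.58, adjusted p = 4.05e-05), and Neurod1 at 31.2 and 56.8, 5.81-fold below (-2.54, SE 0.72, adjusted p = 0.00725). The Neurod1 call was lost without WT replicate 1 (-1.12, adjusted p = 0.172) and without TKO replicate 1 (adjusted p = 0.0749). Olig2, at 3.23 and 0, was at least 6.44-fold below WT (adjusted p = 0.0103), a call lost without WT replicate 2 (adjusted p = 0.0660) or TKO replicate 2 (adjusted p = 0.0904). Thus 6 of the 9 calls, those of Hes5, Dll1, Dll3, Neurog1, Neurog2 and Neurod4, passed with any one library of this comparison left out.

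Markers of other cell types moved with the genotype at this time, in a comparison in which 9.46% of tested genes were called lower and 14.4% higher. Summed neural progenitor markers stood at 5727 to 6298 normalised counts in TKO and 44064 to 62934 in WT cells, and all 10 fell. Of 12 postmitotic neuron markers, 10 fell, with sums of 4090 to 5538 in TKO and 44270 to 79054 in WT cells. Summed early germ cell markers were 11196 to 12271 in TKO and 643 to 1379 in WT cells, and 6 of 8 rose. Of 8 pluripotent epiblast markers 5 rose, with sums of 21144 to 23607 in TKO and 3445 to 3784 in WT cells. Nanog is on both the germ cell and the epiblast list, so their sums share it. It was the most abundant germ cell marker in TKO cells, averaging 6844, whereas in WT cells that was Kit, averaging 887. Summed retina markers were 2708 to 3805 in TKO and 550.1 to 677 in WT cells. None of the 9 retina markers was at 3 counts or fewer in the TKO pair, whereas Crx, Rax, Six3 and Rcvrn were so in the WT pair. Of the 8 tested, 6 rose. Neurod1 and Neurod4 also act in the retina, and the part of these cell types in the members' values was not tested.

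The genotypes differed less at the earlier times. In EpiLCs none of the 9 passed the test, with 2.31% of tested genes called in either direction, and at an unadjusted p below 0.05 were Dll1 and Dll3, both lower in TKO cells. Dll1 stood at 217 and 252 normalised counts in TKO EpiLCs, with a log2 fold change of -0.91 against WT (SE 0.28, adjusted p = 0.0492), inside the fold limit. Atoh1 ran the other way, at 21.8 and 15.4 in TKO against 3.21 and 1.67 in WT EpiLCs, without overlap (log2 fold change 3.08, SE 1.74, adjusted p = 0.284). Atoh1 passed as higher in TKO EpiLCs when only the 4 EpiLC libraries were fitted (3.07, adjusted p = 0.0328) and when either WT day 6 library without cytokines was left out.

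At day 2 without cytokines, 2 of the 9 genes were lower in TKO cells, with a background of 3.08%. Hes5 stood at 6.23 and 1.20 normalised counts in TKO against 38.0 and 33.4 in WT cells (log2 fold change -3.19, SE 0.51, adjusted p = 0.000256). Olig2 stood at 2.08 and 0 against 30.2 and 23.3, at least 7.97-fold lower (adjusted p = 0.00671). Dll1 (98.6 and 96.1 in TKO), Dll3 (58.1 and 37.2) and Neurod4 (6.23 and 19.2) had adjusted p-values of 0.00163, 0.0119 and 0.0413 with log2 fold changes of -1.45, -1.30 and -1.68, inside the fold limit and without overlap of the libraries. The remaining 4 had adjusted p-values of 0.0984 or more, and Neurod1 overlapped between genotypes, at 48.8 and 98.5 in TKO cells. Hes5 and Olig2, raised in WT cells by day 2, thus did not pass against TKO EpiLCs at that time (adjusted p = 0.828 and 0.984). The Olig2 call between genotypes was lost without TKO replicate 2 (adjusted p = 0.0697).

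Within TKO cells without cytokines, Neurod4 was the only one of the 9 to rise. It stood at 0.992 and 1.10 normalised counts in TKO EpiLCs, 6.23 and 19.2 at day 2 (at least 4.06-fold, adjusted p = 0.0238, background 4.73%) and 18.3 and 16.4 at day 6 (at least 5.53-fold, adjusted p = 0.00697, background 7.77%). The day 2 call was lost without either TKO EpiLC library or without TKO day 2 replicate 2 (adjusted p = 0.104 to 0.194). Dll1 and Dll3 went down rather than up, with day 6 log2 fold changes of -1.28 and -1.32 (SE 0.30 and 0.36, adjusted p = 0.00575 and 0.0147), inside the fold limit. Neurog2 stayed at 3 counts or fewer in every TKO library. Neurog1 reached 3.11 and 3.60 at day 2 and 4.31 and 3.79 at day 6 from 0 in both TKO EpiLC libraries, and passed at neither time (adjusted p = 0.153 at day 2). Under other settings it passed at day 6, by library size alone, by DESeq2's Wald test, with no filter on low counts and without either WT day 6 library without cytokines. Hes5 at day 6 was 2.11-fold its TKO EpiLC level and did not pass (adjusted p = 0.327).

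The change from EpiLCs to day 6 was compared between genotypes as an interaction, in which 8.54% of tested genes were called lower in TKO cells. The test gave a smaller change in TKO cells for Dll1 (difference of log2 fold changes -4.49, SE 0.41, adjusted p = 1.23e-06), Dll3 (-4.07, SE 0.49, adjusted p = 1.68e-05), Hes5 (-8.42, adjusted p = 5.29e-05), Neurod4 and Atoh1. Neurod4's call (-7.61, SE 2.22) was lost without WT EpiLC replicate 2 or either TKO EpiLC library (adjusted p = 0.0615 to 0.0684), and Atoh1's (-9.13, SE 2.25) without WT day 6 replicate 2 (adjusted p = 0.144). edgeR could not estimate a difference for Neurog1 and Neurog2, which had no count in TKO EpiLCs, and DESeq2's Wald test gave -8.48 for Neurog2 (adjusted p = 0.00102). Neurod1 (-2.12, adjusted p = 0.110) and Olig2 (adjusted p = 0.233) did not pass.

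**Figure D3:**
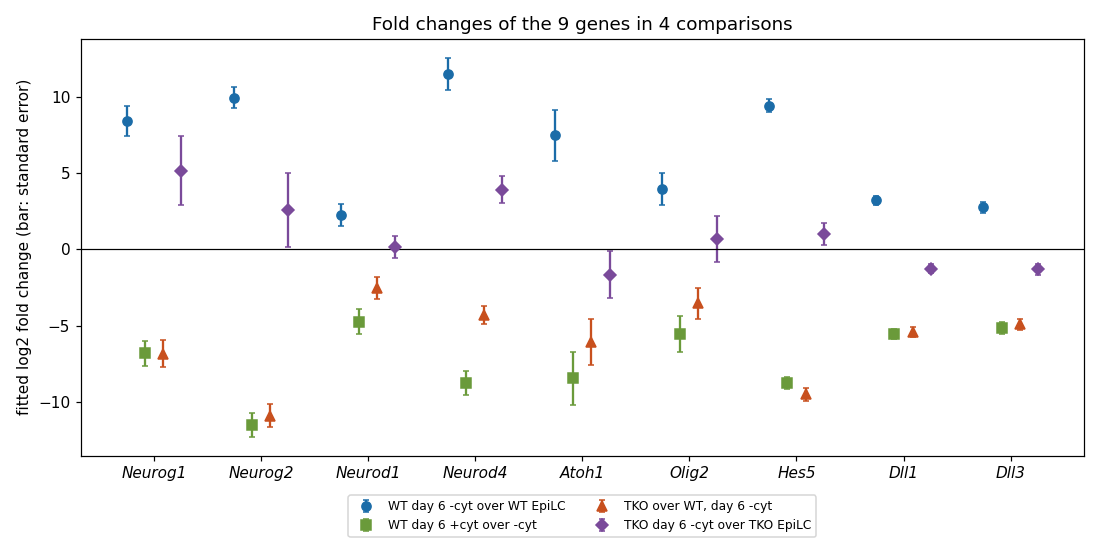
Fitted log2 fold change (vertical, bars show the standard error) of each of the 9 genes (horizontal) in 4 comparisons drawn as separate symbols. All 9 lie above 0 in WT day 6 cells without cytokines over WT EpiLCs and below 0 in TKO over WT cells and in WT cells with over without cytokines, and in TKO day 6 cells over TKO EpiLCs Dll1 and Dll3 lie below 0 at -1.28 and -1.32 and Neurod4 above it at 3.91. Values against a group at 3 counts or fewer depend on the prior count and are no bounds.

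With cytokines at day 6, all 9 genes were lower in WT cells than without, beside 14% of tested genes called lower. Hes5 stood at 9.73 and 11.6 normalised counts with cytokines, 451-fold below the WT pair without (log2 fold change -8.76, SE 0.39, adjusted p = 4.26e-10). Dll1 stood at 103 and 69.5, 48.0-fold below (-5.55, SE 0.33, adjusted p = 3.46e-09), and Dll3 at 34.8 and 41.2, 37.2-fold below (-5.17, SE 0.38, adjusted p = 2.97e-08). The ligands were also below their own EpiLC levels, by 5.28-fold (Dll1, adjusted p = 2.53e-05) and 5.56-fold (Dll3, adjusted p = 9.82e-05). Without WT EpiLC replicate 1 the Dll1 change lay inside the fold limit (log2 fold change -1.88, adjusted p = 0.000394).

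The bHLH factors other than Hes5 were at or near 0 in the WT libraries with cytokines. Neurog2 had 0.695 and 0 normalised counts, at least 674-fold below the pair without cytokines, and Neurog1 5.56 and 2.57, 118-fold below. Neurod4 had 0.695 and 0.643, Atoh1 0.695 and 1.29, and Olig2 0 and 0.643. Neurod1 had 5.56 and 12.9, 27.7-fold below the pair without cytokines (adjusted p = 0.000130) and 5.80-fold below EpiLCs (adjusted p = 0.0202). That fall below EpiLCs was lost without EpiLC replicate 2 (adjusted p = 0.0807) or replicate 1 with cytokines (adjusted p = 0.140). Neurod1, Dll1 and Dll3 were the 3 of the 9 to pass as lower than in EpiLCs, with a background of 3.96%. Without WT replicate 2 of the cells without cytokines, Atoh1 lost its call between the cytokine conditions (-1.86, adjusted p = 0.174), and the other 8 kept theirs without either library of that pair. In the sorted cells with cytokines, summed neural progenitor markers stood at 1544 to 1804 and early germ cell markers at 21287 to 23227 normalised counts.

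In TKO cells, Neurod4 was the only one of the 9 called between cells with and without cytokines. At day 6 Neurod4 fell, from 18.3 and 16.4 without to 0 and 1.15 normalised counts with cytokines, at least 4.09-fold (adjusted p = 0.0272, background 1.62%). At day 2 it fell likewise, from 6.23 and 19.2 to 0 and 0, at least 3.57-fold (adjusted p = 0.0246, background 1.42%). The day 6 call was lost without any one of its 4 libraries (adjusted p = 0.0878 to 0.170), and the day 2 call without 3 of its 4, all but TKO replicate 1 without cytokines (adjusted p = 0.104 to 0.168). Retina markers fell beside it, from 2708 to 3805 without to 189 to 210.0 with cytokines at day 6 in summed normalised counts, and their part was not tested. Neurod1 stood at 31.2 and 56.8 without and 11.8 and 5.74 with cytokines at day 6 (log2 fold change -2.35, SE 0.89, adjusted p = 0.130), and passed when only the 4 libraries compared were fitted (adjusted p = 0.0218). Dll1 stood at 50.4 and 56.3 with cytokines at day 6 and was lower than in TKO EpiLCs (-2.12, SE 0.32, adjusted p = 0.000211), the only one of the 9 called there beside a background of 2.1%. Dll3, at 33.6 and 25.3, was just inside the fold limit (-1.96, adjusted p = 0.00184). At day 2 with cytokines Dll1 stood at 35.1 and 60.8, Dll3 at 66.9 and 34.8, Neurog1 at 9.07 and 7.45 and Neurod1 at 34.0 and 38.5.

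Between genotypes with cytokines at day 6, none of the 9 passed, beside 5.57% of tested genes called in either direction. At an unadjusted p below 0.05 was only Dll1 (log2 fold change -0.69, SE 0.32, adjusted p = 0.153). Atoh1 stood at 10.1 and 10.3 normalised counts in TKO and 0.695 and 1.29 in WT cells, again without overlap (3.21, SE 2.01, adjusted p = 0.293). When only these 4 libraries were fitted, Atoh1 passed (3.18, adjusted p = 0.0213). The cytokine effect at day 6 differed between genotypes for 6 of the 9 genes, Dll1, Dll3, Hes5, Neurog1, Neurog2 and Atoh1, with 10.5% of tested genes called in that direction. For Dll1 the difference of log2 fold changes was 4.70 (SE 0.45, adjusted p = 1.14e-06), for Dll3 4.53 (SE 0.55, adjusted p = 1.22e-05) and for Hes5 8.70 (SE 0.97, adjusted p = 5.57e-06). The differences of Neurog1 (6.57, SE 1.69, adjusted p = 0.00617) and Neurog2 (11.74, SE 3.67, adjusted p = 0.0191) rest on TKO levels of a few counts, and each was lost without 1 TKO library with cytokines (replicate 2 for Neurog1, adjusted p = 0.198, and replicate 1 for Neurog2, when the difference was 8.91). Atoh1's difference (9.26, SE 2.46, adjusted p = 0.00708) was lost without WT replicate 2 without cytokines (adjusted p = 0.141).

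Other genes of the circuit were followed in fixed lists, first from WT EpiLCs to day 6 without cytokines. Of 9 tested other neural bHLH factors 7 rose, with a median log2 fold change of 7.07. Nhlh2, a bHLH factor of young neurons, rose from 0 in both EpiLC libraries to 3566 ± 1499 normalised counts (SD, n = 2). Nhlh1 (log2 fold change 9.15), Olig3 (10.32), Bhlhe22 (6.65), Bhlhe23 (4.85) and Neurod2 (7.07) also rose, while Neurog3 (0.68, adjusted p = 0.584) and Olig1 (2.32, adjusted p = 0.0567) did not pass. Atoh7, Ptf1a and Neurod6 had too few counts to be tested, and Neurod6 had none in these libraries. The WT day 6 pair differed in both directions, with Olig3 at 64.8 and 1329 and Bhlhe22 at 572 and 61.4 in replicates 1 and 2. Olig3 already averaged 952 at day 2 without cytokines. Of 7 dimer partners and inhibitors 6 rose. Among the E proteins, Tcf4 and Tcf12 rose (log2 fold changes 2.03 and 2.62) while Tcf3 was level (-0.14, SE 0.19, adjusted p = 0.544). All 4 Id genes, which tie up E proteins, rose, by log2 fold changes of 3.07 (Id3), 4.69 (Id2), 6.50 (Id1) and 7.07 (Id4). Id1 and Id3 moved with Atoh1 in the WT day 6 pair, at 383 and 3000.5 (Id1) and 495 and 4127 (Id3) in replicates 1 and 2.

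Of 9 Notch receptors and other ligands, 5 rose in WT cells to day 6. Notch1 averaged 729 in EpiLCs and 6277 at day 6 (log2 fold change 3.11, SE 0.31, adjusted p = 6.22e-07), whereas Notch2 (-0.23) and Notch3 (-0.31) had adjusted p-values of 0.387 and 0.300. The other ligands Jag1 (2.44) and Dll4 (3.22) rose and Jag2 had a log2 fold change of 0.15 (adjusted p = 0.739). The non-canonical ligands Dlk1 (4.11) and Dner (8.34) rose, and the receptor Notch4 was inside the fold limit (1.68, adjusted p = 0.00105). Of 8 other Hes and Hey genes and Notch targets, 5 rose, led by Nrarp, a feedback inhibitor switched on by Notch (5.92, SE 0.33, adjusted p = 3.47e-09). Hes3 (2.80), Hey1 (2.87), Hey2 (4.41) and Heyl (4.73) were the others, Hes6 was inside the fold limit (1.33) and Hes7 did not pass (0.64, adjusted p = 0.605). Hes1, the other main Hes effector, had a log2 fold change of -0.23 (SE 0.32, adjusted p = 0.559) beside 9.42 for Hes5. Of 17 genes of signal transduction, 4 rose, beside 16.4% of all tested genes. The DNA-binding partner Rbpj had a log2 fold change of 0.00 (SE 0.25), Psen2 of the protease that cuts Notch one of -0.12 and Numb, an inhibitor of Notch, one of 0.36 (adjusted p = 0.138). The glycosyltransferase Lfng rose (3.56, SE 0.33, adjusted p = 3.62e-07), as did the coactivators Maml2 (4.80) and Maml3 (5.24). Mfng (1.99), Mib1, which primes ligands for signalling (1.59), and Maml1 (0.74) lay inside the fold limit with adjusted p-values of 0.00122 or less. Of 12 genes known to follow proneural factors, 9 rose, and all 12 had adjusted p-values below 0.05, from Hes6 (1.33) and Gadd45g (1.46) to Nhlh1 (9.15) and Ebf2 (10.40). Nhlh1, Hes6 and Mfng are counted in the lists above as well.

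In TKO against WT cells at day 6 without cytokines, none of these lists had a gene called higher. Beside 9.46% of all tested genes, called lower were 7 of 9 tested other neural bHLH factors, 4 of 7 partners and inhibitors, 4 of 9 receptors and other ligands, 4 of 8 Hes, Hey and target genes, 4 of 17 transduction genes and 10 of 12 genes that follow proneural factors. The list of genes that follow proneural factors shares Nhlh1, Hes6 and Mfng with the other lists, so these counts are not separate. Nhlh2 averaged 3.51 normalised counts in TKO and 3566 in WT cells (adjusted p = 2.63e-08). Notch1 (-2.31, SE 0.30), Nrarp (-4.39, SE 0.30), Lfng (-4.32, SE 0.35) and Hes6, a bHLH partner that counters Hes proteins (-3.48, SE 0.23), all fell with adjusted p-values of 1.24e-05 or less. Hes1 did not pass, at 387 in TKO and 276 in WT cells (0.52, SE 0.32, adjusted p = 0.181), and neither did Notch2 (0.04, adjusted p = 0.880). Rbpj was higher in TKO cells inside the fold limit, with 2210.1 and 1046 normalised counts (1.10, SE 0.25, adjusted p = 0.00180). Among the genes that follow proneural factors, Nhlh1 (-9.77) and Ebf3 (-6.41) fell furthest, and Plk3 (-0.70) and Btg2 (-1.58) were inside the fold limit. The median of the transduction list was -0.85 and that of the genes that follow proneural factors -3.67, beside -5.39 for the 9 genes.

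**Figure D4:**
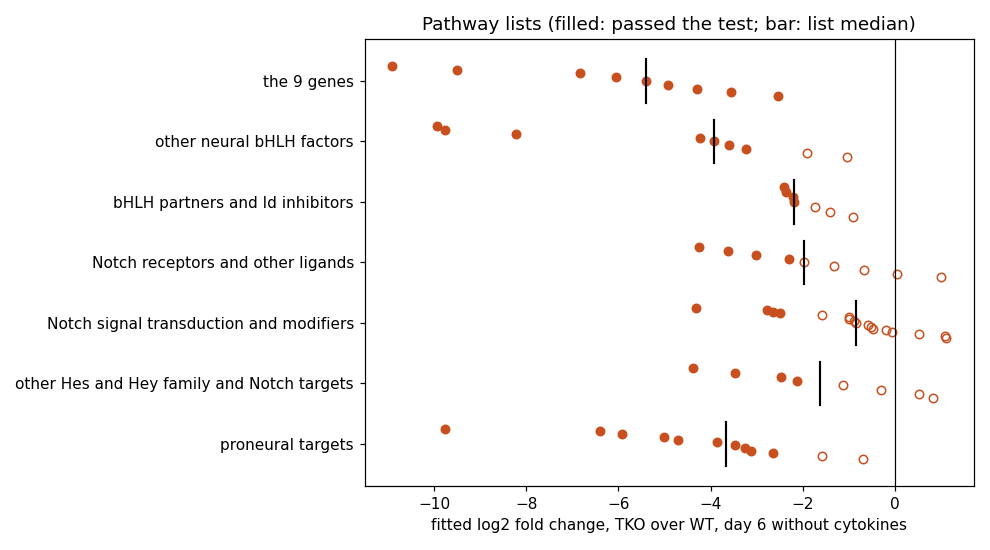
Fitted log2 fold change of TKO over WT cells at day 6 without cytokines (horizontal) for each tested gene of 7 lists (vertical), filled where the gene passed the test, with a bar at the list median. The 9 genes lie furthest to the left by their median of -5.39, and the transduction genes nearest to 0 with a median of -0.85.

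Across the 18 libraries, the members' levels on the log2 CPM scale followed each other to different degrees. Pearson's r was 0.97 for Neurog2 and Hes5 and 0.96 for Dll1 and Dll3, and the lowest value for a pair was 0.12, for Neurod1 and Atoh1. These are descriptions over points that share conditions and the 2 high WT day 6 libraries. Of the 13719 genes compared, those most like Neurog2 were Pantr1 (0.99), Gm30731 (0.98) and Pantr2 (0.98), and those like Neurog1 included Klc1 and Nhlh2 (0.96 each). Hes5 was nearest to Klc1 (0.98), Gm30731 and Pantr1 (0.97 each), and Dll1 and Dll3 were each nearest to Ncan (0.97). Next to Dll1 came Sbk1 and Nsg2 (0.95 each), and next to Dll3 Rtn2 (0.96) and Sbk1 (0.95). Neurod4 was nearest to Nova1, Dach1 and Pfn2 (0.97 each), and Neurod1 to Gria4, Cacna1b and Ipo13 (0.91 each). Atoh1 stood apart, nearest to Gdf7 (0.90), Bmp6 (0.90) and Otx1 (0.86), and Olig2 was nearest to Zeb2os (0.95), Mpdz and Golm1 (0.94 each).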

How the data were processed

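RNA-seq gene counts of 18 libraries were used as deposited, and every library was placed in its condition by its labels. Per the study's methods and the submitters' processing notes, the authors trimmed reads with Trim Galore 0.5.0 and cutadapt 1.16, aligned them to mm10 with STAR 2.7.1a and made the deposited counts with featureCounts of Subread 1.5.2, summing all exons of a RefSeq gene without use of strand. Reads of overlapping antisense genes therefore cannot be told apart, which touches Neurod1, Hes5 and Dll1. The notes also name DESeq2. 33 empty rows without a gene name were left out.

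Genes were filtered with edgeR's filterByExpr by condition, scaled by TMM and fitted in one edgeR 4.0.16 quasi-likelihood model of 9 condition means without a replicate block (R 4.3.3), which was tested on simulated data. Standard errors were obtained from the log2 fold change and its F statistic. Displayed levels use size factors of DESeq2 1.42.0. Folds against a condition with at most 3 counts in each library are lower bounds on the ratio of means, set by that floor. They cover counting error only, not the spread between libraries. Likeness is Pearson's r of log2 CPM over genes whose mean reached 50 normalised counts in a condition. Alternatives were library size alone, RLE factors, DESeq2's Wald test, other filters and limits, removal of Rn45s, fits of only the libraries compared, a replicate block and leaving out each library.

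The members, gene lists and tests were chosen with earlier results of these data known. Genes named are the 9 members, all other neural bHLH, partner, receptor, ligand, Hes and Hey genes, named transduction genes, the 2 highest and 2 lowest of the lists of transduction genes and proneural targets, Tet genes, the 3 most alike genes per member, and from marker lists the 2 most abundant and those near 0. Some genes that this rule names are not reported here.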

Additional observations from a re-analysis of the deposited data

Results flagged for a closer look

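The change from EpiLCs to day 6 without cytokines differed between genotypes by the interaction test (edgeR's quasi-likelihood test, Benjamini-Hochberg adjusted) for 5 of the 9 genes, each with the smaller change in TKO cells, beside 8.54% of tested genes called in that direction. The difference of log2 fold changes, TKO minus WT, was -4.49 for Dll1 and -4.07 for Dll3, the ligands, -8.42 for Hes5, -7.61 for Neurod4 (adjusted p = 0.0164) and -9.13 for Atoh1 (adjusted p = 0.00512). Atoh1 lost its call without WT day 6 replicate 2 (adjusted p = 0.144), and Neurod4 without WT EpiLC replicate 2 or either TKO EpiLC library (adjusted p = 0.0615 to 0.0684).

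The difference between cells with and without cytokines at day 6 also differed between genotypes, for 6 of the 9 genes, beside 10.5% of tested genes called in that direction. TKO minus WT, it was 4.70 for Dll1, 4.53 for Dll3, 8.70 for Hes5, 6.57 for Neurog1, 11.74 for Neurog2 and 9.26 for Atoh1. The call was lost without TKO replicate 2 with cytokines for Neurog1, without TKO replicate 1 with cytokines for Neurog2 and without WT replicate 2 without cytokines for Atoh1. Both tests use the same WT and TKO libraries at day 6 without cytokines, so they are not separate evidence, and the second also sets sorted WT cells beside whole TKO aggregates. With 2 libraries in each condition, no library could be examined as standing apart from its own group by a test.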

How the results depend on the processing

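The counts of genes passing in the 5 comparisons within WT cells, in TKO against WT cells at day 6 without cytokines and in the 2 interactions stayed within 1.5 times under every alternative run. TKO against WT EpiLCs and TKO against WT cells at day 6 with cytokines each went from 0 to 1, Atoh1, when only the libraries compared were fitted, and ran from 0 to 1 with a library left out. TKO against WT cells at day 2 went from 2 to 5 with a log2 limit of 1 and to 1 with a mean CPM of 1 or more, and from 2 to 4 with a library left out (4 without WT day 6 replicate 1 without cytokines, adding Neurog2 and Atoh1). Within TKO cells, day 2 over EpiLCs went from 1 to 3 with a log2 limit of 1 and to 0 with an adjusted p limit of 0.01 or only the libraries compared (0 to 2 with a library left out). Day 6 over EpiLCs went to 3 with a log2 limit of 1 and to 2 by library size alone, DESeq2 or no filter (1 to 2 with a library left out). Day 6 with cytokines over EpiLCs went to 2 with a log2 limit of 1, DESeq2 or no filter (1 to 3 with a library left out). The cytokine comparison went from 1 to 0 at day 2 with an adjusted p limit of 0.01 or only the libraries compared (0 to 1 with a library left out). At day 6 it went to 0 with that limit and to 2 by library size alone, DESeq2, no filter or only the libraries compared (0 to 2 with a library left out). The causes were not tested.

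Atoh1 in TKO against WT cells at day 6 without cytokines ran from a log2 fold change of -7.06 to 0.54 with a library left out, and turned direction without WT replicate 2. Over all members and comparisons, leaving out a library kept 606 results on their side of the limits, weakened 33, strengthened 8 and turned that 1. RLE factors and removal of Rn45s changed none of 144. Library size alone, which moved the median of all genes from 0.05 to 0.73 in WT day 6 cells over EpiLCs, changed 3 to passing and 1 to not passing. It moved the share of higher calls from 60.1 to 75.8% there.

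The replicate block left 9 genes passing in TKO against WT cells at day 6 without cytokines and changed the call of none of the 144. Replicate numbers did not pair the libraries: correlations of deviations between conditions ran from -0.156 to 0.182 (median 0.0118), with 7 of 36 over 0.1. Where a library held 3 counts or fewer of a gene, a difference below that floor was not detectable at this depth.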

Other observations

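Marker lists of other tissues in which members act gave these values in WT cells at day 6 without cytokines. Of the 9 measured presomitic mesoderm markers, a tissue in which Dll1 and Dll3 act in segmentation, Msgn1 and Meox1 were at 3 counts or fewer, and Lfng, at 1241 normalised counts, and Uncx, at 692, were the most abundant. Of the 8 pancreatic and enteroendocrine markers, of cell types that also use Neurod1, the genes Pdx1, Ins1, Ins2 and Gcg were at 3 counts or fewer and Chga, at 251, was the most abundant. Of the 8 glial markers, only Gfap was at 3 counts or fewer, with Slc1a3 at 525 and Mbp at 297, and 2 rose from EpiLCs. Of the 8 placode and sensory neuron markers 6 rose from EpiLCs, beside 16.4% of tested genes, with Pou4f1 at 269 and Eya2 at 262 the most abundant.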
